A study of Rattus norvegicus with 24 samples.

Results

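The genes described here serve glucose uptake, glycolysis and phosphocreatine energy supply, and were measured in rat plantaris muscle with and without functional overload. They were Slc2a4 (ENSRNOG00000017226), Hk2 (ENSRNOG00000006116), Gapdh (ENSRNOG00000018630), Ldha (ENSRNOG00000013009) and Ckm (ENSRNOG00000016837), chosen by gene ID out of 31998 genes in the table. All 5 were present and passed the filter on low counts, with at least 3739 estimated counts in every library. The symbols came from the rule that named the IDs, since the deposited table holds IDs alone.

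The study sequenced RNA of the plantaris, a calf muscle, from female rats that were 14 months old and belonged to generation 19 of the LRT and HRT lines. The lines were selectively bred for a low (LRT) or a high (HRT) response to endurance training. The 4 groups were LRT overload, LRT control, HRT overload and HRT control, with 6 libraries each. In the overload groups the gastrocnemius and soleus of one leg had been removed, which loads the remaining plantaris, and the muscle was taken after 14 days. Where the control muscle was taken, from other rats or from the unoperated leg, is not stated in the labels. The p-values therefore measure only the spread between these libraries.

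Muscle takes up glucose through the transporter encoded by Slc2a4 (GLUT4), which insulin and contraction bring to the fibre surface. Hexokinase 2 (Hk2) phosphorylates the glucose and so holds it in the fibre. Gapdh encodes the glycolytic enzyme glyceraldehyde-3-phosphate dehydrogenase and is widely used as a reference gene. Ldha encodes the lactate dehydrogenase subunit that favours the step from pyruvate to lactate, and Ckm encodes the muscle creatine kinase that regenerates ATP from phosphocreatine. Fast fibres depend heavily on this glycolytic and phosphocreatine supply.

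The stretches before the transcription start are shown for the 4 genes found in the promoter table, so that the letters upstream of the measured genes can be compared. Each is the 250 bases upstream of the RefSeq start in build GRCr8, which is not the build of the counts. Capitals mark E-boxes (CANNTG, the core bound by myogenic and other helix-loop-helix factors) and the hypoxia response cores ACGTG and GCGTG, on either strand.
Hk2, chr4:116841276-116841525, minus strand: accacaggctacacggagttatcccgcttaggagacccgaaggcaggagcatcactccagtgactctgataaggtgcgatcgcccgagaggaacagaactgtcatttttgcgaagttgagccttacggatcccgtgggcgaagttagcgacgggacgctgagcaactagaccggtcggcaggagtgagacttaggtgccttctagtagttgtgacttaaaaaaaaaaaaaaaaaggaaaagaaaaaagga
Gapdh, chr4:159652468-159652717, minus strand: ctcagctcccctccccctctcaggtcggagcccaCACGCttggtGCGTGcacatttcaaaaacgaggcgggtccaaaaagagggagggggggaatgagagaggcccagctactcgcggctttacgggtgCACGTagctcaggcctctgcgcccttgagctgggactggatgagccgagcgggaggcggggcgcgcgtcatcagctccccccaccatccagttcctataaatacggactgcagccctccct
Ldha, chr1:106507842-106508091, plus strand: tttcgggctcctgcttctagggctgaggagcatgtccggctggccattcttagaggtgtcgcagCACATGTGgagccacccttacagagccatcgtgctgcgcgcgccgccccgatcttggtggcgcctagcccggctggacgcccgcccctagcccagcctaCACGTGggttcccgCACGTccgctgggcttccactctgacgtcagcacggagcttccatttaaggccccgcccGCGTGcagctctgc
Ckm, chr1:88189211-88189460, plus strand: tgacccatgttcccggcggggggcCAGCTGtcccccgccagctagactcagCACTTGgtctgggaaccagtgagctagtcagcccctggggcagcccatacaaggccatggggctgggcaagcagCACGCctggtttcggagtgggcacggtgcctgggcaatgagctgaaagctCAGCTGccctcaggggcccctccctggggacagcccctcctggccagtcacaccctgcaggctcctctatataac
The Ckm window held 3 E-boxes, and 2 of them had the letters CAGCTG. The Ldha window also held 3, of which 2 overlapped each other and the third, CACGTG, contained the ACGTG core on both strands. The Ldha window held a further ACGTG core and 1 GCGTG core, and the Gapdh window held 1 ACGTG and 2 GCGTG cores. The Hk2 window held none of these letters. Among 33469 promoters, 65.5% held an E-box, 16.6% an ACGTG core and 25.9% a GCGTG core in a window of the same length. The matches describe letters and are not binding sites.

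Library totals ran from 26997674 to 34254957 estimated counts. Levels are given as CPM, the count of a gene relative to the scaled library total, with scaling by trimmed mean of M values (TMM). By counts Ckm ranked 7 among all genes in LRT overload, LRT control and HRT control and 9 in HRT overload, a place in keeping with the label of skeletal muscle. RNA integrity (RIN) ran from 8.2 to 8.9 in LRT overload and 8.1 to 8.5 in LRT control, and from 8.6 to 9.4 in HRT overload and 8 to 8.6 in HRT control. Scaling by library totals alone put the median gene at 0.22 in LRT and 0.27 in HRT on the log2 scale of overload over control, beside −0.02 with TMM in each line. With RIN as a covariate the log2 fold changes after overload lay between −0.98 (Gapdh) and −0.69 (Ckm) in LRT and between −1.34 (Gapdh) and −0.69 (Hk2) in HRT.

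A set of 4 overload libraries stood apart from the rest: LRT overload replicate 2 and HRT overload replicates 1, 2 and 6. Their TMM factors were 1.18 to 1.28, against 0.977 to 1.09 in the other 8 overload libraries and 0.844 to 0.955 in controls. They had 21087 to 21191 genes with at least 1 count, against 20228 to 20522 in the other overload libraries and 19516 to 20333 in controls. Results after overload are therefore also given without these 4 libraries, a choice made after seeing the data, which leaves 5 LRT overload and 3 HRT overload libraries. CPM is divided by the TMM factor, so leaving out the libraries with the highest factors partly builds in smaller falls.

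The first comparison asked what overload did to these genes in LRT muscle. All 5 fell (edgeR quasi-likelihood test, Benjamini-Hochberg adjusted p under 0.05), and each was lower in every LRT overload library than in every LRT control library. Over all 16661 genes tested, 28.3% fell by the same rule, and 15.5% had all overload libraries below all controls. The median log2 fold change of the 5 was −0.69, beside −0.02 over all genes tested and −0.43 over the 100 most abundant, of which 58 fell and 8 rose. Without the 4 libraries that stood apart all 5 genes still fell in LRT, with log2 fold changes of −0.75 (Gapdh) to −0.39 (Ckm). In whole muscle, fewer cells of a type and less RNA per cell cannot be told apart.

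Slc2a4 had 242, 391 and 412 CPM as lowest, median and highest value in LRT overload, against 477, 573 and 632 CPM in LRT control. The groups did not overlap, and LRT overload replicate 2 lay well below the other overload libraries. The log2 fold change of the transporter was −0.63 ± 0.177 (SE), a level 1.55-fold lower (edgeR adjusted p = 0.00375). With library totals alone it was −0.40 (edgeR adjusted p = 0.0176).

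Hk2 had 129.8, 145 and 177 CPM in LRT overload, against 197, 201 and 438 CPM in LRT control. Replicate 3 made the highest LRT control value, and the other 5 control libraries lay between 197 and 209 CPM. The log2 fold change of the hexokinase was −0.69 ± 0.195 (SE, edgeR adjusted p = 0.00406). Without LRT control replicate 3 it was −0.44 (edgeR adjusted p = 0.0171), and with library totals alone also −0.44 (edgeR adjusted p = 0.0312).

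Gapdh had 2104, 2767 and 3038 CPM in LRT overload, against 4056, 4708 and 5859.5 CPM in LRT control. Its log2 fold change of −0.85 ± 0.144 (SE), a level 1.80-fold lower, had the greatest size of the 5 in LRT (edgeR adjusted p = 2.57e-05). Rodent genomes hold many processed copies of Gapdh, and how reads shared with them were divided is not given in the sources used here, so its level is uncertain.

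Ldha had 1817, 2336 and 2538 CPM in LRT overload, against 3358, 3710.4 and 4404 CPM in LRT control. The subunit's transcript was 1.68-fold lower (log2 fold change −0.75 ± 0.127, SE, edgeR adjusted p = 2.69e-05). Ckm had 8282, 12343 and 13549.7 CPM in LRT overload, against 15321, 16137 and 19179 CPM in LRT control. Creatine kinase had a log2 fold change of −0.51 ± 0.152 (SE) in LRT, with an edgeR adjusted p of 0.00599. With library totals alone it was −0.28 (edgeR adjusted p = 0.0342). The transcript made up 1.23% ± 0.140 (SD, n = 6) of all counts in LRT overload and 1.49% ± 0.130 in LRT control.

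**Figure D1:**
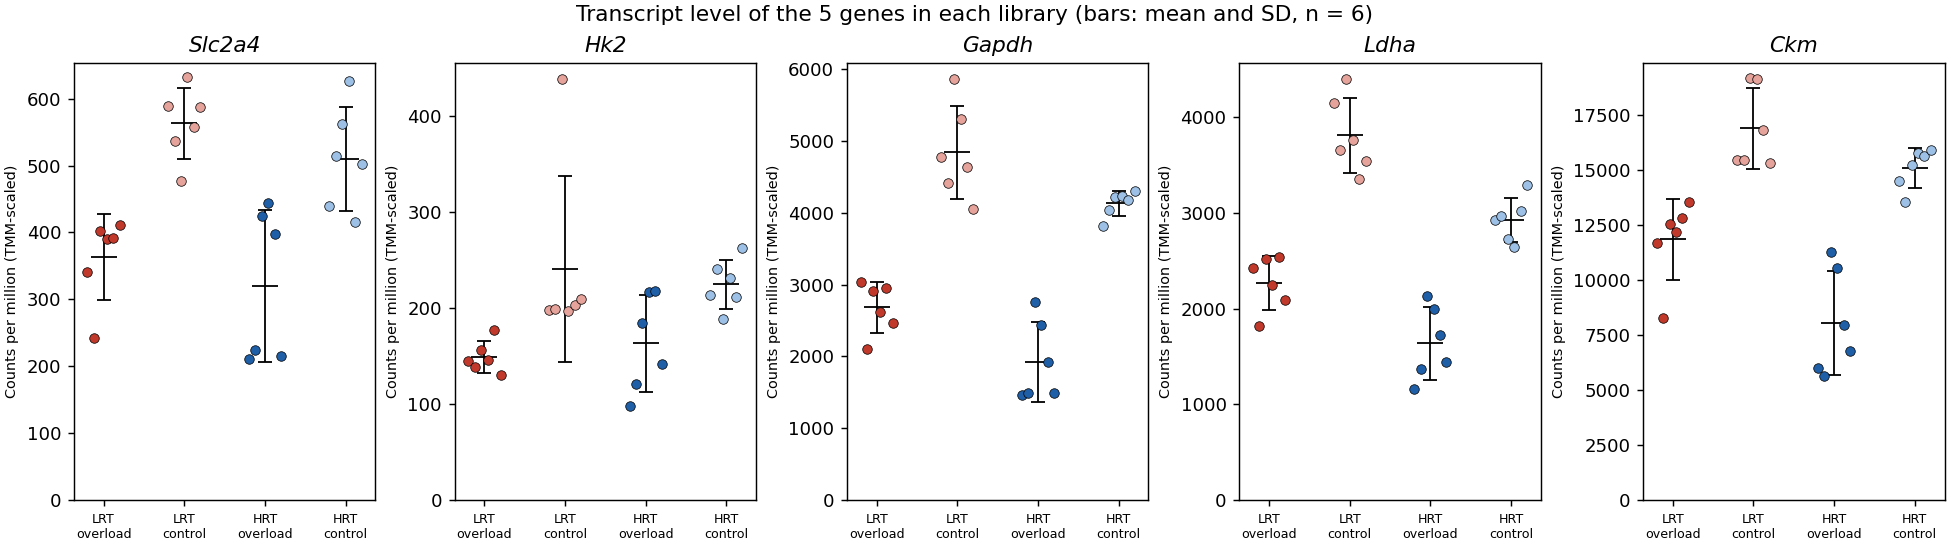
Level of each gene in CPM (vertical axis, from 0) in the 24 libraries, with 1 point per library, the group mean and the SD (n = 6). In LRT each overload library lies below each control library, 1 LRT control library stands at 438 CPM of Hk2, and HRT overload libraries spread more widely than HRT controls.

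In HRT muscle the 5 genes also fell at an edgeR adjusted p under 0.05, where 31.2% of all genes tested fell. For Gapdh, Ldha and Ckm the groups did not overlap, as for 17.1% of all genes in the same direction. For Slc2a4 and Hk2 they did overlap. Without the 4 libraries that stood apart Gapdh, Ldha and Ckm still fell (log2 fold changes −0.77, −0.56 and −0.57, highest edgeR adjusted p = 9.60e-05). Slc2a4 and Hk2 then did not pass, at −0.24 (edgeR adjusted p = 0.0664) and −0.09 (edgeR adjusted p = 0.752). The median log2 fold change of the 5 was −0.84, beside −0.02 over all genes and −0.62 over the 100 most abundant, of which 74 fell and 9 rose.

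Slc2a4 had 211, 311 and 444 CPM as lowest, median and highest value in HRT overload, against 415, 509 and 626 CPM in HRT control. Replicates 1, 2 and 6 lay between 211 and 224 CPM, and replicates 3, 4 and 5 between 398 and 444 CPM. The log2 fold change was −0.68 ± 0.177 (SE, edgeR adjusted p = 0.00191), and −0.42 with library totals alone (edgeR adjusted p = 0.0113).

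Hk2 had 98.1, 163 and 217 CPM in HRT overload, against 189, 222 and 262 CPM in HRT control. Replicates 4 and 5 of the overload group lay inside the control range. The log2 fold change was −0.46 ± 0.194 (SE, edgeR adjusted p = 0.0426), and this call depended on the setting. With library totals alone it was −0.19 (edgeR adjusted p = 0.331), and with RIN as a covariate −0.69 (edgeR adjusted p = 0.0665). Leaving out HRT overload replicate 1, 2 or 6 gave an edgeR adjusted p of 0.110, 0.101 or 0.105. Leaving out HRT control replicate 1, 2, 4 or 6 gave 0.0511, 0.0695, 0.0626 or 0.0850.

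Gapdh had 1458, 1706 and 2756 CPM in HRT overload, against 3812, 4199 and 4297 CPM in HRT control. The highest overload library was thus well below the lowest control library. Its log2 fold change of −1.10 ± 0.144 (SE), a level 2.15-fold lower, had the greatest size of the 5 in HRT too (edgeR adjusted p = 6.19e-07).

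Ldha had 1160.5, 1582 and 2129 CPM in HRT overload, against 2639, 2949 and 3291 CPM in HRT control (log2 fold change −0.84 ± 0.127, SE, edgeR adjusted p = 4.25e-06). Ckm had 5653, 7351 and 11259 CPM in HRT overload, against 13541, 15424 and 15904 CPM in HRT control. Creatine kinase was 1.88-fold lower (log2 fold change −0.91 ± 0.153, SE, edgeR adjusted p = 1.77e-05), and its share of all counts was 0.908% ± 0.188 in HRT overload and 1.42% ± 0.0831 in HRT control (SD, n = 6). Together the 5 genes held 1.37% ± 0.266 of all counts in HRT overload and 2.15% ± 0.0942 in HRT control. In LRT they held 1.80% ± 0.172 in overload and 2.32% ± 0.186 in control.

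**Figure D2:**
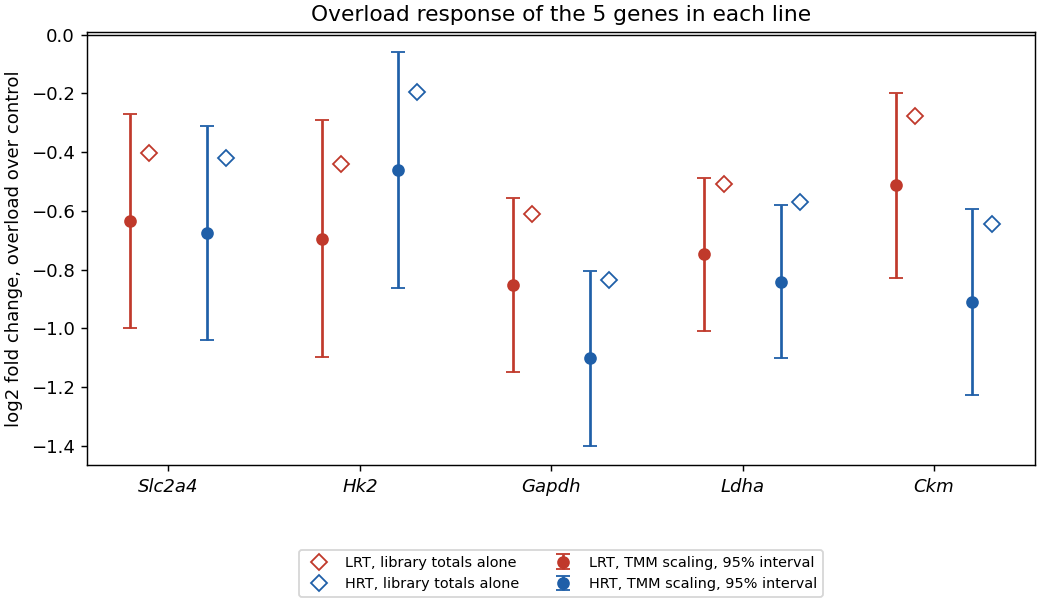
Log2 fold change of overload over control (vertical axis) for each gene, in LRT (left of each pair) and HRT. Filled points and bars are TMM estimates with 95% intervals, and open diamonds are estimates with library totals alone. The 10 values lie below 0 under both scalings, and Hk2 in HRT is nearest to 0.

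**Figure D3:**
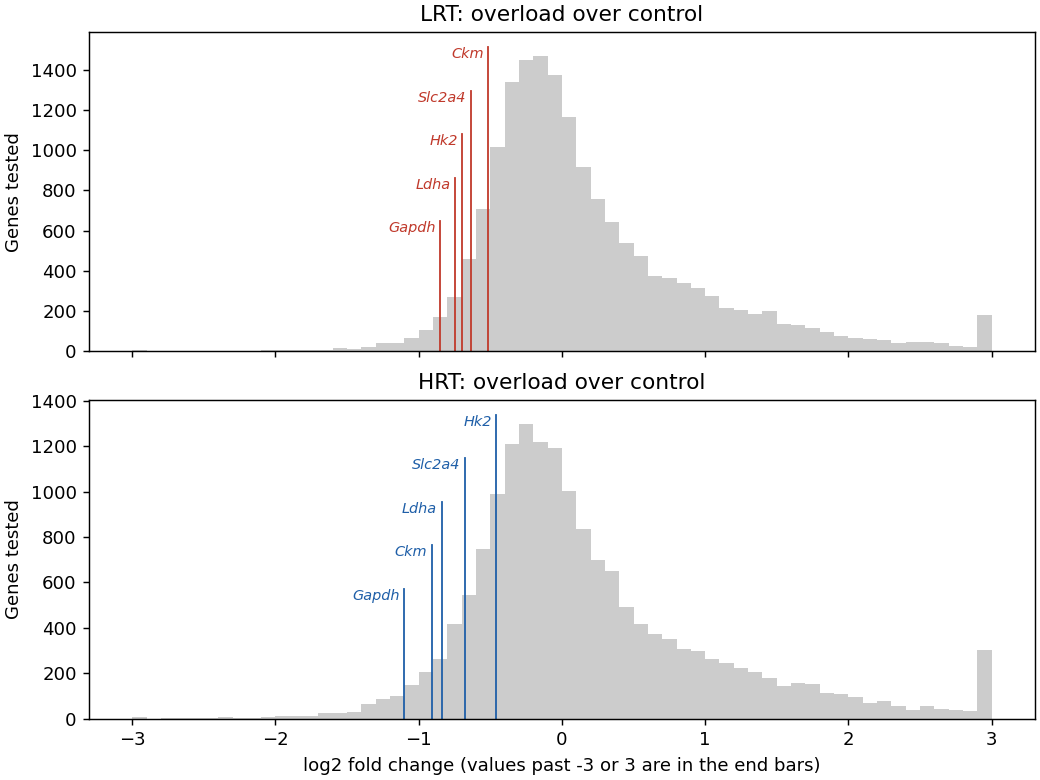
Number of genes tested (vertical axis) by log2 fold change of overload over control (horizontal axis), in LRT above and HRT below. Named vertical lines mark the 5 genes, and their height has no meaning. In both lines the 5 genes lie left of the peak, with Gapdh farthest left.

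Against the other genes tested, Gapdh stood low in both lines: 2.44% of genes in LRT and 2.42% in HRT had a lower log2 fold change. Hk2 had 4.78% of genes below it in LRT and 18.5% in HRT. Ckm had 10.9% below it in LRT and 4.42% in HRT.

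The overload libraries that stood apart also held the lowest levels of most of the 5 genes. In HRT overload, replicates 1, 2 and 6 made the lower 3 values for each of the 5 genes, and replicate 1 was the lowest for 4 of them. In LRT overload, replicate 2 was the lowest for 4 of the 5 genes and second lowest for Hk2. These orders are in CPM, which is divided by the TMM factor that set the libraries apart, so they are partly built in. As a share of all counts, replicates 1, 2 and 6 were still the lower 3 of HRT overload for each gene. In LRT overload replicate 2, Hk2 then had 0.0164%, and only replicate 5 was higher (0.0183%). Ldha there had 0.214%, above the 0.211% of replicate 6. The coefficient of variation of Gapdh was 28.8% in HRT overload and 4.30% in HRT control. For Ckm it was 29.5% in HRT overload and 6.07% in HRT control. In LRT, Gapdh varied by 13.3% in overload and 13.4% in control, and Ckm by 15.6% in overload and 10.9% in control.

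**Figure D4:**
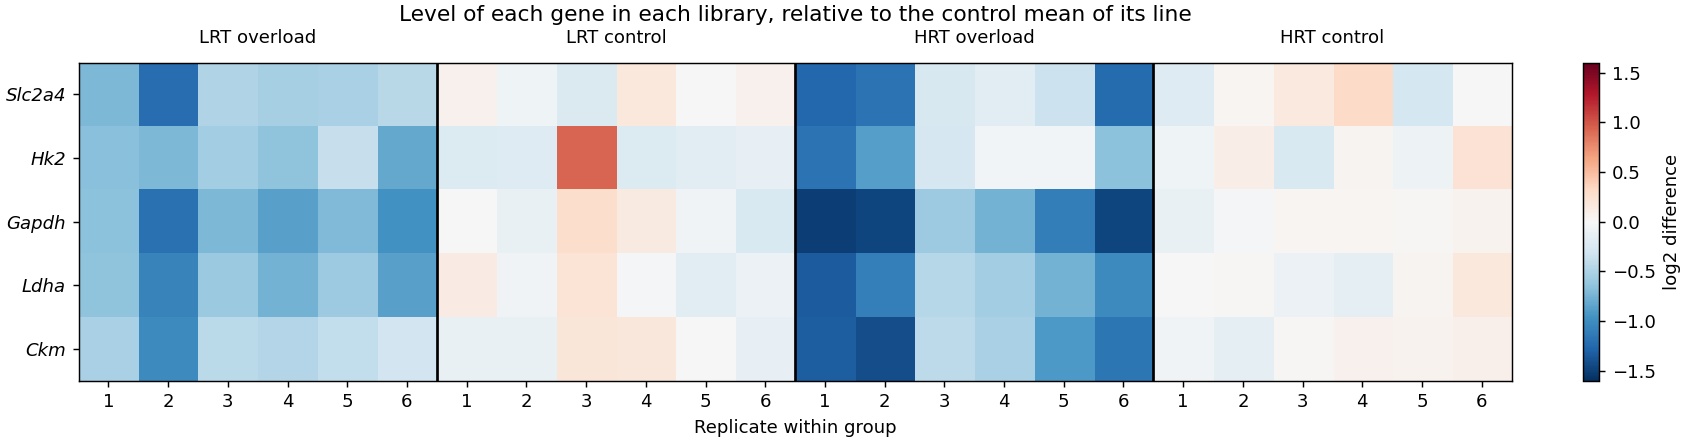
Log2 difference of each gene in each library from the mean of the control libraries of its line (colour scale, rows are genes, columns are replicates within groups). Blue is lower and red is higher: HRT overload replicates 1, 2 and 6 and LRT overload replicate 2 are dark in most rows, and Hk2 in LRT control replicate 3 is the single strong red cell.

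Likeness over the 24 libraries was measured as Pearson's r of log2(CPM + 0.5) and is a description, since the libraries share groups and scaling. Gapdh and Ldha had r = 0.972, Gapdh and Ckm 0.963, and Slc2a4 and Ckm 0.896. Hk2 was the least like the others, with r between 0.683 (Slc2a4) and 0.748 (Gapdh). Many other genes were as alike: among all genes tested, by likeness to Gapdh, Ldha ranked 38 and Hk2 3234, and by likeness to Slc2a4, Ckm ranked 695. Outside the 5, the gene most like Gapdh was ENSRNOG00000052802 (r = 0.992), with log2 fold changes of −0.89 in LRT and −1.12 in HRT (edgeR adjusted p = 8.30e-05 and 3.84e-06). The gene most like Ldha was ENSRNOG00000058249 (r = 0.986), with log2 fold changes of −0.76 in LRT and −0.93 in HRT (edgeR adjusted p = 2.94e-05 and 1.55e-06). The files do not pair these IDs with names.

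The response of the 5 genes was then compared between lines. Tested as LRT minus HRT, the response differed for 0 of the 5 by edgeR, by DESeq2 and by limma-voom, and 0 of them had an unadjusted edgeR p under 0.05 in the fit of all groups without covariates. Of all genes tested, 0.048% passed in edgeR. The difference for Ckm was 0.40 on the log2 scale, with a 95% interval of −0.05 to 0.84 (edgeR adjusted p = 0.421). For Gapdh it was 0.25 (95% interval −0.17 to 0.67), for Ldha 0.09 (−0.27 to 0.46), for Slc2a4 0.04 (−0.47 to 0.56) and for Hk2 −0.23 (−0.80 to 0.33), with edgeR adjusted p of 0.597, 0.850, 0.960 and 0.732. In this fit each interval includes 0, so no difference was detectable at this spread, while the intervals of Ckm and Hk2 reach 0.84 and −0.80. Without LRT control replicate 3 the difference for Hk2 was 0.02 (edgeR adjusted p = 0.977). The difference for Ckm was 0.56 with RIN as a covariate (edgeR adjusted p = 0.271) and 0.37 with library totals alone (edgeR adjusted p = 0.318), and its unadjusted p was under 0.05 in both. With replicate number in the model its unadjusted edgeR p was 0.0241, and 0.0157 with RIN added, where that of Gapdh was 0.0446. Leaving out single libraries gave unadjusted edgeR p as low as 0.0157 for Ckm and 0.0458 for Gapdh. In these settings too, 0 of the 5 passed after adjustment. Leaving out the 4 libraries that stood apart gave 0.18 for Ckm, 0.0176 for Gapdh and −0.55 for Hk2, while Slc2a4 and Ldha turned to −0.26 and −0.0965, and 0 of the 5 passed (lowest edgeR adjusted p = 0.302).

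Between the lines in control muscle, 0 of the 5 genes passed by edgeR, DESeq2 or limma-voom, where 1.97% of all genes tested did in edgeR, and 1 of the 5 had an unadjusted edgeR p under 0.05. That gene was Ldha. It had 3358 to 4404 CPM in LRT control, against 2639 to 3291 CPM in HRT control, so the groups did not overlap, as for 1.75% of all genes in that direction. Its log2 fold change was 0.38 ± 0.126 (SE, edgeR adjusted p = 0.120). A fit to the control groups alone called it (log2 fold change 0.36, edgeR adjusted p = 0.0210). The groups overlapped for Slc2a4, Hk2, Gapdh and Ckm, with log2 fold changes of 0.14, 0.10, 0.23 and 0.16 and 95% intervals that include 0. The value for Hk2 turned to −0.16 without LRT control replicate 3, and to −0.0027 with library totals alone.

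In overloaded muscle, 2 of the 5 genes were higher in LRT at an edgeR adjusted p under 0.05, where 1.6% of all genes tested were. Of the 100 most abundant genes, 16 were higher in LRT and 1 was lower by the same rule. Their median log2 fold change was 0.30, beside 0.47 for the 5 genes and −0.01 over all genes tested. Ldha had 1817 to 2538 CPM in LRT overload, against 1160.5 to 2129 CPM in HRT overload (log2 fold change 0.47 ± 0.126, SE, edgeR adjusted p = 0.0427). Ckm had 8282 to 13549.7 CPM in LRT overload, against 5653 to 11259 CPM in HRT overload (log2 fold change 0.56 ± 0.152, SE, edgeR adjusted p = 0.0447). The groups overlapped for all 5 genes, while 0.864% of all genes tested lay without overlap in that direction. Gapdh had 2104 to 3038 CPM in LRT overload, against 1458 to 2756 CPM in HRT overload, and just missed the threshold (log2 fold change 0.48 ± 0.143, SE, edgeR adjusted p = 0.0613). Slc2a4 (log2 fold change 0.18, 95% interval −0.18 to 0.55) and Hk2 (−0.13, −0.53 to 0.27) did not pass (edgeR adjusted p = 0.570 and 0.726).

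These calls between lines after overload depended on the settings, while the direction did not for Ldha, Ckm and Gapdh in the 25 other settings run. Ldha passed in 12 of these settings with log2 fold changes of 0.27 to 0.56 over all 25, Ckm in 13 with 0.33 to 0.72, and Gapdh in 10 with 0.23 to 0.61. The DESeq2 Wald test called all 3, with adjusted p of 0.00625 for Ldha, 0.00625 for Ckm and 0.0177 for Gapdh. Library totals alone, limma-voom, the stricter filter and RIN as a covariate also called all 3 (adjusted p of 0.0174 to 0.0448). In a fit to the overload groups alone none of the 3 passed, at similar log2 fold changes of 0.48 for Ldha, 0.57 for Ckm and 0.49 for Gapdh (edgeR adjusted p = 0.193, 0.212 and 0.232).

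Single libraries also moved these calls. Those of Ldha and Ckm were lost without LRT overload replicate 1, 3, 4, 5 or 6 and without HRT overload replicate 1, 2, 5 or 6, with adjusted p of 0.0557 to 0.105 for Ldha and 0.0658 to 0.113 for Ckm. Gapdh passed without LRT overload replicate 2 (edgeR adjusted p = 0.0266), HRT overload replicate 3 (0.00853) or HRT overload replicate 4 (0.0247). With the 4 libraries that stood apart left out, 0 of the 5 passed, with log2 fold changes of 0.27 for Ldha, 0.33 for Ckm, 0.23 for Gapdh, −0.13 for Slc2a4 and −0.46 for Hk2 (lowest edgeR adjusted p = 0.110). In that fit 3 of the 5 had an unadjusted edgeR p under 0.05, which were Ckm (0.00431), Ldha (0.0122) and Hk2 (0.0391).

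Ratios of 2 genes within a library do not depend on scaling between libraries. They are ratios of counts, not corrected for gene length, so they show changes and not which gene is more abundant. The 10 ratios among the 5 genes were compared in 4 ways, which made 40 exact permutation tests of mean log2 ratios, two-sided. The smallest p that 6 against 6 libraries allow is 0.00216. Adjusted over the 40 tests, 11 differences passed 0.05. The 10 ratios share the same 5 genes, so the tests are not independent. Ratios of other gene pairs were not tested, so how often those would pass or separate without overlap is not known. Without the 4 libraries that stood apart each of the 11 kept its direction, with unadjusted exact permutation p of 0.00216 to 0.0357.

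Relative to Gapdh, the other genes were higher in HRT overload than in HRT control. Hk2 counts per Gapdh count were 0.0670 to 0.113 in HRT overload, against 0.0447 to 0.0609 in HRT control, with no overlap. The ratio was 1.55-fold higher (exact permutation p = 0.00216, adjusted p = 0.0173). Ldha counts per Gapdh count were 0.773 to 0.966 in HRT overload, against 0.623 to 0.768 in HRT control, again with no overlap and 1.21-fold higher (exact permutation p = 0.00216, adjusted p = 0.0173). The Slc2a4 to Gapdh ratio was 1.32-fold higher (exact permutation p = 0.00649, adjusted p = 0.0260) and the Ckm to Gapdh ratio 1.14-fold higher (exact permutation p = 0.00433, adjusted p = 0.0260) in HRT overload than in HRT control, both with overlap. Hk2 was also higher relative to Ldha and Ckm: the Hk2 to Ldha ratio was 1.28-fold higher (exact permutation p = 0.00649, adjusted p = 0.0260) and the Ckm to Hk2 ratio 1.36-fold lower (exact permutation p = 0.0130, adjusted p = 0.0472) in HRT overload. The 5 transcripts thus did not all change by the same amount in HRT, and the fall of Hk2 itself depended on the setting.

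In LRT the Ckm to Gapdh ratio was 3.85 to 5.50 in overload, against 3.23 to 3.78 in control, with no overlap and 1.26-fold higher (exact permutation p = 0.00216, adjusted p = 0.0173). The Hk2 to Gapdh ratio was 0.0475 to 0.0659 in LRT overload, against 0.0371 to 0.0747 in LRT control (exact permutation p = 0.193, adjusted p = 0.310). LRT control replicate 3 made the highest of these control ratios. Without it the log2 difference was 0.35 in place of 0.22 (exact permutation p = 0.0108). The log2 differences of Slc2a4 to Gapdh (0.20, adjusted p = 0.310) and Ldha to Gapdh (0.10, adjusted p = 0.251) did not pass the exact permutation test in LRT. Whether the shifts of ratios differed between lines was not tested.

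After overload, Hk2 was lower in LRT than in HRT relative to Gapdh, Ldha and Ckm. The Hk2 to Gapdh ratio was 0.0475 to 0.0659 in LRT overload, against 0.0670 to 0.113 in HRT overload, and 1.51-fold lower in LRT (exact permutation p = 0.00216, adjusted p = 0.0173). The Hk2 to Ldha ratio was 0.0595 to 0.0763 in LRT overload, against 0.0845 to 0.126 in HRT overload, and 1.49-fold lower (exact permutation p = 0.00216, adjusted p = 0.0173). Neither pair of groups overlapped. The Ckm to Hk2 ratio was 1.59-fold higher in LRT overload than in HRT overload, and the Ckm to Slc2a4 ratio 1.28-fold higher (exact permutation p = 0.00649 and adjusted p = 0.0260 for each). In control muscle the Hk2 to Ldha ratio was 1.27-fold lower in LRT and did not pass (exact permutation p = 0.0671, adjusted p = 0.163). Without LRT control replicate 3 this log2 difference was −0.49 in place of −0.34 (exact permutation p = 0.00216). The log2 differences of Hk2 to Gapdh (−0.18) and Ckm to Hk2 (0.12) in control muscle did not pass either (exact permutation adjusted p = 0.423 and 0.621). Without that library they were −0.31 and 0.27 (unadjusted exact permutation p = 0.0216 and 0.0303).

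**Figure D5:**
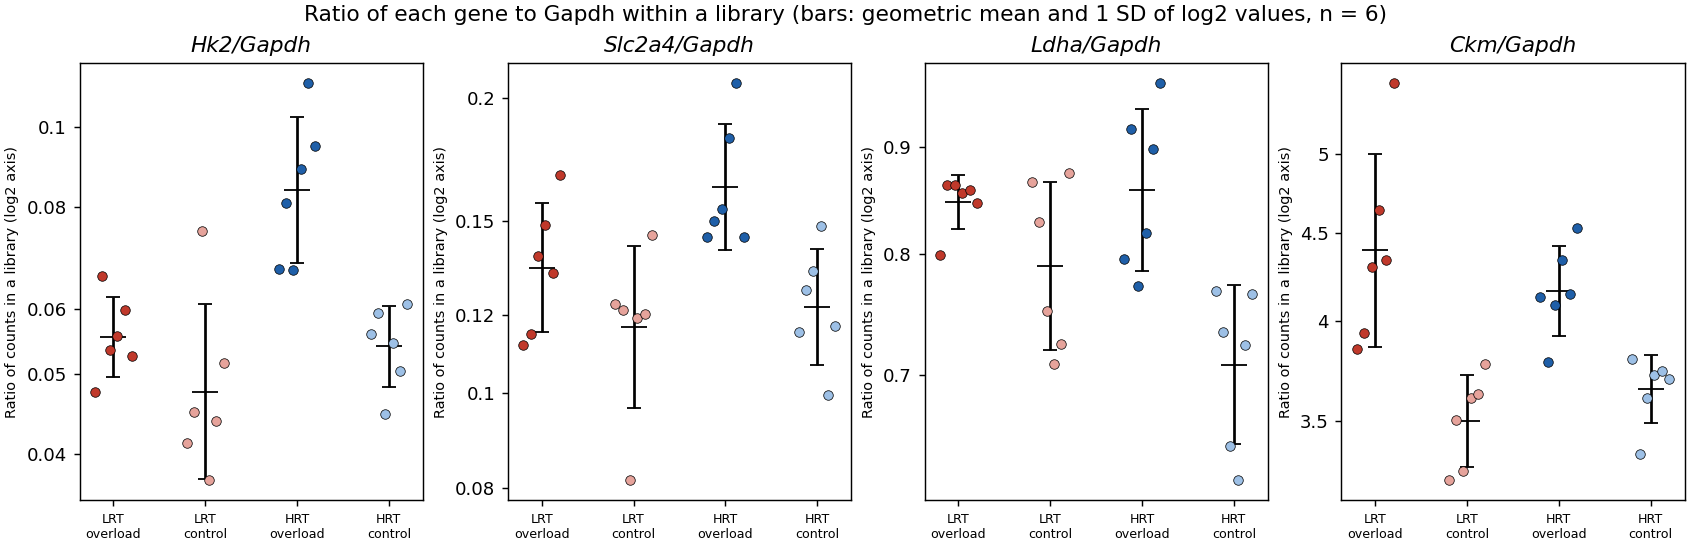
Ratio of the counts of Hk2, Slc2a4, Ldha and Ckm to those of Gapdh within each library (vertical log2 axis), with 1 point per library, the geometric mean and 1 SD of log2 values (n = 6). The Hk2 to Gapdh ratio of HRT overload, 0.0670 to 0.113, lies above the LRT overload and HRT control values.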

How the data were processed

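RNA of 24 plantaris libraries was analysed, 6 per group. The deposited table holds estimated counts per Ensembl gene ID, not normalized. Per the submitters' processing notes Salmon 0.9.1 was used; they list rn6 and Rnor_6.0 as builds, and the annotation is not given in the sources used here. After rounding to whole numbers, genes were filtered with filterByExpr of edgeR 4.0.16 in R 4.3.3 (minimum count 10, minimum total 15), which kept 16661. TMM scaling and 1 robust quasi-likelihood model over the 4 groups followed, with Benjamini-Hochberg adjustment over all genes tested and a threshold of 0.05. Each SE is the size of the log2 fold change divided by the root of its F statistic. Ratios used exact permutation tests over all 924 splits.

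The members and lists were chosen with earlier results of these data known. All 5 members were named in each comparison, and of the genes most like each member at most 2 IDs per direction were printed. The RefSeq table (GRCr8, 47357 genes) matched 0 IDs, so other pathway genes and cell type markers were not analysed here. Promoters were matched by symbol for 4 of the 5.

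Libraries of one group were checked for repeats in 60 pairs, and none agreed within sampling noise (chi-square per degree of freedom at least 12.44). The model was tested on simulated counts. For overload in HRT it recovered 49.25% of 1.5-fold, 73.13% of 2-fold and 95.45% of 4-fold changes. For the difference between responses it recovered 35.82%, 68.66% and 95.45%, so differences of small size are often missed. The simulation changed a small random set of genes of all abundances. In the data 10523 of 16661 genes passed for overload in HRT, and the 5 genes had at least 3739 estimated counts in every library. The rates therefore need not hold for that comparison or for these genes. Alternatives were DESeq2 1.42.0, limma-voom (limma 3.58.1), other scalings, filters and dispersions, unrounded counts, RIN as a covariate, the replicate block, a fit to 2 groups at a time, leaving out single libraries and, chosen after seeing the data, leaving out the 4 overload libraries with a TMM factor of at least 1.18. Plots were drawn with matplotlib 3.10.9.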

Additional observations from a re-analysis of the deposited data

Results flagged for a closer look

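Among 20 groups of 6 values (5 genes in 4 groups), 2 held a library far from the others, where chance flags about 1 group in 20. Hk2 was at 438 CPM in LRT control replicate 3, while the other LRT control libraries lay between 197 and 209 CPM. In that library the CPM of Gapdh, Ldha and Ckm were also the highest of the group, and that of Slc2a4 was the lowest. As a share of all counts, Ckm there was 1.62%, below the 1.65% of LRT control replicate 4. Ckm was at 8282 CPM in LRT overload replicate 2, below the other LRT overload libraries, in which it was at least 11700 CPM. The flags were set on CPM, which depends on the TMM factor. As a share of all counts, Ckm was at least 1.19% in those others and 0.977% in LRT overload replicate 2. This library, with a TMM factor of 1.18, is 1 of the 4 that stood apart. In it the CPM of Slc2a4, Gapdh and Ldha were the lowest of the group as well.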

How the results depend on the processing

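Of 675 values of the 5 genes under other settings, 614 kept direction and side of the threshold, 50 changed side and 11 changed sign. Of 590 ratio values, 542 were counted as kept, with the side judged by an unadjusted exact permutation p under 0.05. Differences of group medians, which have no p, were counted as kept if close to the main difference relative to the SD. All 5 genes in LRT, and Gapdh, Ldha and Ckm in HRT, fell after overload in all settings run. The 5 member calls in HRT became 3 without the 4 libraries that stood apart, a setting chosen after seeing the data, and were 4 or 5 otherwise. The cause of the changes below was not tested.

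The 8 genes with a different response became 1 with DESeq2 size factors, 137 with the DESeq2 Wald test, 2 with limma-voom, 5 without the filter, 5 without robust dispersion, 2 with RIN, 219 without the 4 libraries and 1 to 25 with a library left out. Between lines in control muscle the 328 genes became 619 (Wald), 206 (no filter) and 154 to 495 (a library left out), and the 5 members gave 1 call instead of 0 in the compared groups alone. In overloaded muscle the 514 genes became 2153 (library totals), 1093 (Wald), 307 (no filter), 785 (RIN), 115 (compared groups alone), 320 (without the 4 libraries) and 171 to 1647 (a library left out). There the 2 member calls became 0 without the filter, in the compared groups alone or without the 4 libraries, and 0 to 3 with a library left out. With library totals 6765 genes rose and 1893 fell in LRT, against 4808 and 4716 with TMM; in HRT 7942 rose and 2238 fell, against 5319 and 5204.

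Same-numbered overload and control libraries correlated at −0.14 to 0.13 in their deviations, and 3 of 12 matched their own number best. The check gave no clear sign of pairing by number, but weak correlations cannot exclude that libraries share a rat. With the replicate block, 9494 genes were called after overload in LRT, 10570 in HRT, 1 for the difference between responses and 587 between lines after overload, where 3 members passed; with block and RIN these last gene counts were 1 and 289.

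Some signs changed. Hk2 between lines in control muscle was −0.0027 with library totals and −0.16 to 0.15 with a library left out. With a library left out the response difference ranged from −0.0537 to 0.16 for Slc2a4 (0.20 with RIN) and −0.35 to 0.0239 for Hk2. Without the 4 libraries it was −0.26 for Slc2a4 and −0.0965 for Ldha, and Slc2a4 between lines after overload was −0.13. With a library left out log2 ratio differences ranged from −0.0775 to 0.0747 (Ckm/Slc2a4, control), −0.13 to 0.0353 (Slc2a4/Gapdh, control), −0.0497 to 0.0148 (Ldha/Gapdh, overloaded), −0.0430 to 0.19 (Ckm/Hk2, LRT overload) and −0.26 to 0.0722 (Slc2a4/Hk2, LRT overload). Without the 4 libraries Ldha/Gapdh between lines after overload was 0.0275 and Slc2a4/Hk2 after overload in LRT 0.0722.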
